A study of Mus musculus with 2 samples.

Results

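The 3' TRAJ joins are TCRα clonotypes that carry a J gene from the end of the J cluster nearest the constant gene, TRAJ23 and downstream. They were taken as the clonotypes whose first-listed J gene was TRAJ1 to TRAJ23, with TRAJ18, the J gene of invariant NKT cells, set aside. This gave 5643 of 15672 TCRα clonotypes, and of 19558 clonotypes of both chains, in 2 libraries of induced T (iT) cells. The thymus library contributed 2191 of its 6089 TCRα clonotypes and the spleen library 3452 of its 9583.

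The iT cells arose in immunodeficient B-NDG mice (NOD with Prkdc scid and mutant Il2rg, CD45.1). The mice were sublethally irradiated at 8 to 10 weeks of age and given hematopoietic progenitors made in culture from iR9-ESC. The iR9-ESC are C57BL/6 (CD45.2) embryonic stem cells with a doxycycline-inducible Runx1-p2a-Hoxa9 cassette at Rosa26. The cells of both libraries thus share the donor line and the transgene. In the study's protocol doxycycline was added in culture before the endothelial progenitors were sorted and kept during maturation on OP9-DL1 feeder cells. The study describes transplantation in the absence of doxycycline, but does not restate this for the mice of these libraries. For each library, 15000 CD45.2+ CD4 single-positive and CD8 single-positive cells were sorted at week 6 after transplantation, from the thymus or from the spleen. The study describes the cells of both tissues as naive, CD62L+ CD44-, but its listed gates name these markers for the spleen only, and for the thymus the exclusion of other lineages and γδ T cells. Whether the gates differed is thus unclear, and tissue, library and any difference of gate cannot be told apart. Each tissue had 1 library, and whether the same mice gave both is not given in the sources used here. The tests between libraries below compare these libraries and treat clonotypes as independent. They do not compare tissues over mice. Only TCR transcripts were measured, so markers of the sorted cells could not be checked here.

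The mouse TCRα locus holds a long array of V genes followed by a long array of J genes and a single constant gene. A thymocyte can rearrange the same allele repeatedly, and each new round joins a V gene further upstream to a J gene further downstream, deleting the earlier join. J genes at the constant-gene end are therefore known as the targets of late rounds. The CDR3 is the stretch of V, inserted and J bases that spans the join, and a clonotype here is 1 CDR3 nucleotide sequence assembled from the reads.

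In the GENCODE annotation of mouse genome build GRCm38 the used 3' genes lie on the plus strand of chromosome 14, from TRAJ23 at chr14:54196081-54196140, 24381 bases before the constant gene, to TRAJ2 at chr14:54217836-54217901, 2620 bases before it. Each is a short J exon. The germline exons of the leading genes (TRAJ23, TRAJ22, TRAJ12), of genes whose read share differed most between the libraries (TRAJ9, TRAJ7, TRAJ11, TRAJ2) and of the almost unused TRAJ20 and TRAJ3 are shown. Capitals mark the 4-codon motif searched for in the reading frame, a Phe, Leu, Trp or Cys codon followed by GGN, any codon and GGN.
TRAJ23: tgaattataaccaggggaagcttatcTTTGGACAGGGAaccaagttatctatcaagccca
TRAJ22: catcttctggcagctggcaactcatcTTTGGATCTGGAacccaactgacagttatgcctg
TRAJ12: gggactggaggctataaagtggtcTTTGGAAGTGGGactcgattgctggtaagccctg
TRAJ11: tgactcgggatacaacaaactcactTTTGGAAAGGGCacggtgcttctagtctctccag
TRAJ9: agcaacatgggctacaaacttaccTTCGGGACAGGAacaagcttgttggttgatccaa
TRAJ7: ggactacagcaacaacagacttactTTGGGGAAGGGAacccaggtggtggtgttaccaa
TRAJ2: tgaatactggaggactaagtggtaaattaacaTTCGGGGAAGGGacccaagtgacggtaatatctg
TRAJ20: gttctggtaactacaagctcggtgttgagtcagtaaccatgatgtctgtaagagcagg
TRAJ3: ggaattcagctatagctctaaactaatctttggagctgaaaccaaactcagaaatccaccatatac

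The motif holds the conserved residue at which the CDR3 ends, which is Phe in most J genes. It was found in 47 of the 60 annotated TRAJ genes (78.3%) and in 15 of the 21 annotated genes of the 3' range. Those 15 genes were the ones with at least 10 clonotypes in both libraries. TRAJ7 begins its motif with the Leu codon TTG in place of Phe, and its productive clonotypes ended with TTG in 82 of 82 cases in the thymus and 102 of 102 in the spleen.

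The remaining 7 numbers of the range contributed almost nothing. TRAJ1, TRAJ8 and TRAJ14, annotated as pseudogenes, had no clonotype in either library, nor did TRAJ19 or TRAJ10, the latter not listed in the annotation. A count of 0 allows a share of up to 0.0493% of TCRα clonotypes in the thymus and 0.0313% in the spleen. TRAJ3 had 1 clonotype of 1 read in the thymus with 34 bases between the aligned V and J ends, and TRAJ20 had 1 clonotype of 1 read in the spleen. Single reads of this kind cannot be told from errors of assembly, and neither gene enters the per-gene results.

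As a group, the 3' joins made up the same part of all TCRα clonotypes, in frame or not, in both libraries. They were 36.0% in the thymus (Wilson 95% interval 34.8% to 37.2%) and 36.0% in the spleen (35.1% to 37.0%). Among productive clonotypes alone the part was larger in the thymus, at 1724 of 4545, than in the spleen, at 2374 of 6651, which was not tested. By reads they held 33.1% in the thymus and 38.4% in the spleen. The libraries held 918063 and 1820314 TCRα reads, respectively. No molecular identifiers were stated, so intervals and the limits from a count of 0 cover counting error only. A single large clonotype of another J gene weighs on the thymus figure. The largest clonotype of TRAJ24 to TRAJ44, a TRAJ39 join, had 98095 reads there, whereas the largest 3' clonotype had 3096. TRAJ39 held 13.0% of the thymus TCRα reads, and 2.56% with its largest clonotype left out. In the spleen these shares were 4.49% and 2.87%. Much of the library difference in the 3' read share may thus rest on this clonotype. The 10 largest 3' clonotypes held 5.13% of the thymus 3' reads and 8.96% of those of the spleen.

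Use was uneven along the range, and the same 2 genes led in both libraries. TRAJ23, the most upstream member, led with 337 clonotypes in the thymus (5.53% of TCRα clonotypes) and 501 in the spleen (5.23%). TRAJ22 followed with 296 (4.86%) and 386 (4.03%). Then came TRAJ12, TRAJ21 and TRAJ15, with 206, 202 and 176 clonotypes in the thymus, and in the spleen with 305, 300 and 334. There TRAJ15 ranked above TRAJ12 and TRAJ21, although the intervals of the 3 genes overlapped in each library.

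The genes between and below were used less. TRAJ9 had 164 clonotypes in the thymus and 267 in the spleen, TRAJ17 had 134 and 259, and TRAJ13 had 128 and 199. TRAJ4, TRAJ6, TRAJ7 and TRAJ16 each had 86 to 106 clonotypes in the thymus and 151 to 176 in the spleen. The scarcest were TRAJ11 with 55 and 100, TRAJ5 with 52 and 89, and TRAJ2, the gene nearest the constant gene, with 46 and 63. Position alone did not order them, as the low TRAJ11 lies between the more used TRAJ12 and TRAJ9.

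None of the 15 genes passed the two-sided Fisher's exact test of its clonotype share in the thymus against the spleen, Benjamini-Hochberg adjusted over 44 TRAJ genes. Over all TRAJ genes 2.27% were called higher in the thymus and 0% higher in the spleen. At an unadjusted p under 0.05 there were 3 members. By this exact test TRAJ22, at 4.86% of thymus and 4.03% of spleen clonotypes, had p = 0.0142 (adjusted p = 0.125). TRAJ15 was at 2.89% and 3.49% (p = 0.0421, adjusted p = 0.180) and TRAJ16 at 1.41% and 1.84% (p = 0.0474, adjusted p = 0.180) by the same exact test.

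**Figure D1:**
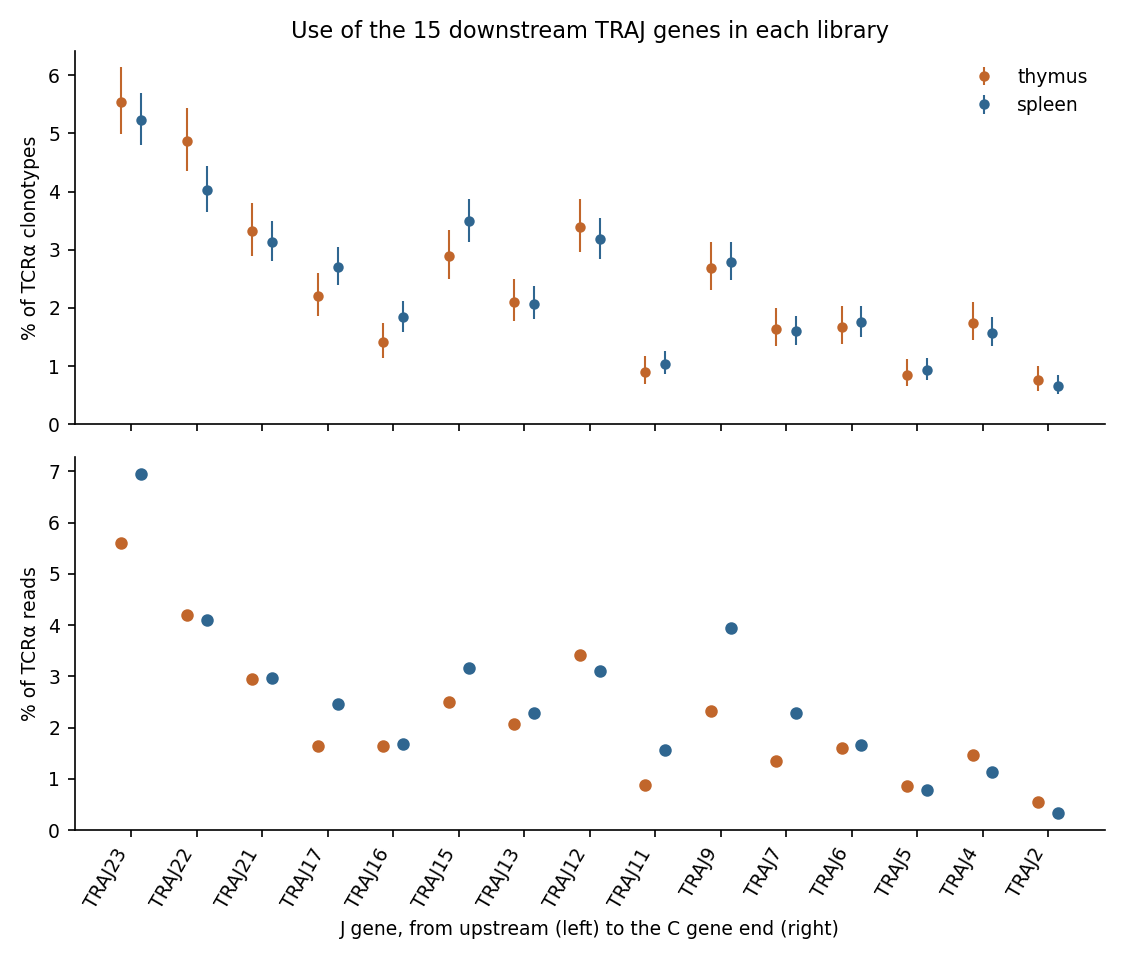
Share of TCRα clonotypes (top, with Wilson 95% intervals) and of TCRα reads (bottom) for the 15 used 3' J genes, in percent, in the thymus and spleen library, ordered from upstream to the constant gene. TRAJ23 is highest in both libraries on both scales, and the clonotype shares lie closer together than the read shares at TRAJ7, TRAJ9 and TRAJ11.

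Reads separated the libraries more than clonotypes did for a few genes. TRAJ9 held 2.33% of the thymus and 3.94% of the spleen TCRα reads, TRAJ7 held 1.35% and 2.29%, and TRAJ11 held 0.888% and 1.56%. These 3 of 15 members had a read share at least 1.5 times higher in the spleen, against 22.7% of all TRAJ genes. TRAJ2 was the 1 member with a read share at least 1.5 times higher in the thymus, 0.547% against 0.340%, where 9.09% of all TRAJ genes were. Both counts are near the background of all J genes. TRAJ23 again led by reads, with 5.61% in the thymus and 6.95% in the spleen.

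Single clonotypes carried part of these differences. The largest TRAJ7 clonotype held 24.8% of the TRAJ7 reads of the spleen, and with the largest clonotype of each library left out the spleen share was 1.36 times that of the thymus, compared with 1.70 times with it, so the gene was no longer past 1.5 times. For TRAJ11 the largest clonotype held 35.3% of the spleen reads, and the ratio moved from 1.75 to 1.504. For TRAJ9 it moved less, from 1.69 to 1.63. The spleen share of TRAJ2 was 0.622 times that of the thymus, and 0.675 times without the largest clonotypes, so the thymus excess was then under 1.5 times.

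The largest and the shared 3' clonotypes are shown because they carry those reads. Capitals mark the bases aligned to J, which in the second-ranked spleen join and the TRAV14-3 join include a base before the germline start. That base could be palindromic, and whether it came from V was not tested. Where both libraries held the CDR3 the first-listed copy of the V gene could differ. It was TRAV14N-1 in the spleen for the TRAJ16 join, TRAV14D-1 for the TRAJ22 join and TRAV7-2 for the last TRAJ7 join, and in the thymus TRAV8-1 for the TRAV8D-1 join.
TRAV14D-1 to TRAJ16: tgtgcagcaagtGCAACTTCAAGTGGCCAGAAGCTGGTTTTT
TRAV7-4 to TRAJ11: tgtgcagtcgggcACAAACTCACTTTT
TRAV7N-5 to TRAJ5: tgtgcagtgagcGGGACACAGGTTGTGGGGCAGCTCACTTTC
TRAV16D-DV11 to TRAJ7: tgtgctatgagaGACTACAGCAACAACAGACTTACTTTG
TRAV8D-1 to TRAJ11: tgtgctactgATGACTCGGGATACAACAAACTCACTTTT
TRAV6D-5 to TRAJ9: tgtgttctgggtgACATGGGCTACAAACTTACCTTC
TRAV14-3 to TRAJ22: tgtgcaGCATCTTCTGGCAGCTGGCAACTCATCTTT
TRAV7D-2 to TRAJ7: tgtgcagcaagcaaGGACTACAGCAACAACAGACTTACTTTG

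The TRAV14D-1 to TRAJ16 join was the largest 3' clonotype of the thymus with 3096 reads and was found in the spleen with 1815 reads. It had no inserted base and an untrimmed J. The next in the thymus were the TRAV7-4 to TRAJ11 join with 1980 reads, 6 inserted bases and 14 J bases trimmed, and the TRAV7N-5 to TRAJ5 join with 1873 reads. Neither CDR3 was found in the spleen.

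In the spleen the TRAV16D-DV11 to TRAJ7 join led with 10330 reads and had 240 reads in the thymus. The TRAV8D-1 to TRAJ11 join followed with 10012 reads in the spleen and 6 in the thymus. The third, TRAV6D-5 to TRAJ9 with 7772 reads, was found in the spleen library only. None of the 3 had an inserted base.

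A total of 277 of the CDR3 nucleotide sequences occurred in both libraries, 105 with the same first-listed V gene. All 277 had the same J gene, which an identical CDR3 largely fixes because it holds the J bases. They were 12.6% of the 3' clonotypes of the thymus (11.3% to 14.1%) and 8.02% of those of the spleen (7.16% to 8.98%), and held 17.7% and 21.5% of the 3' reads. Among all other TRAJ clonotypes 10.9% and 6.90% were shared. Ranked by the smaller of the read counts in the 2 libraries, the next shared joins after TRAJ16 were the TRAV14-3 to TRAJ22 join, with 1123 thymus and 1062 spleen reads, and the TRAV7D-2 to TRAJ7 join, with 679 and 802. Of the productive shared clonotypes, 60.9% had no inserted base in the thymus and 61.7% in the spleen, against 28.5% and 41.0% of the productive clonotypes found in 1 library. Whether a shared sequence came from 1 cell lineage, from separate rearrangements or from carry-over between libraries was not tested.

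The V partners of the 3' joins lay mostly away from the J cluster. TRAV17 to TRAV21, among the TRAV genes nearest to J, were almost absent. They made up 10 of 2191 thymus clonotypes (0.456%, 0.248% to 0.838%) and 13 of 3452 spleen clonotypes (0.377%, 0.220% to 0.643%). In joins to TRAJ24 to TRAJ44 they made up 2.55% in the thymus and 3.58% in the spleen, and in joins to TRAJ45 and upstream 10.6% and 16.6%. All 4 differences passed Fisher's exact test, two-sided, with Benjamini-Hochberg adjustment over 4 tests. In the thymus the 3' joins were 2.09 percentage points below the middle joins (-2.09, interval -2.77 to -1.45, adjusted p = 9.37e-10 by this exact test) and -10.1 points from the upstream joins (-12.3 to -8.21, adjusted p = 1.27e-40). In the spleen the same exact test gave differences of -3.20 points (-3.81 to -2.63, adjusted p = 3.95e-26) and -16.2 points (-18.3 to -14.4, adjusted p = 1.40e-113).

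By V gene, TRAV21/DV12 accounted for 7 of the 10 thymus clonotypes and 7 of the 13 of the spleen. TRAV17 had 2 and 1, TRAV19 had 1 and 5, and TRAV18 and TRAV20 had none in either library. By J gene, 10 of the 15 members had no join to these V genes in the thymus and 9 had none in the spleen. TRAJ23, the gene nearest the middle of the cluster, had the most, with 4 of 337 and 6 of 501. The highest share of any member, both times at TRAJ23, was 1.19% (thymus) and 1.20% (spleen). Among the 10 upstream J genes with at least 10 clonotypes the lowest shares were 2.56% (thymus) and 5.93% (spleen).

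**Figure D2:**
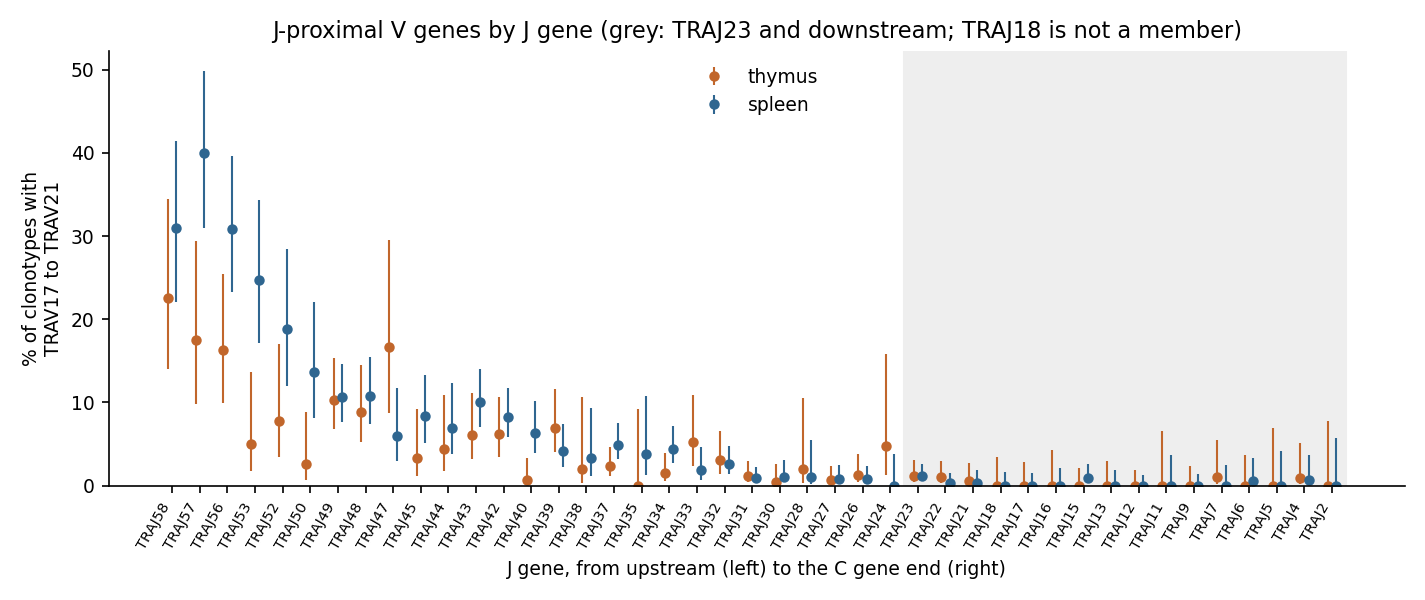
Percent of clonotypes whose V gene was TRAV17 to TRAV21, for each J gene with at least 10 clonotypes in both libraries, ordered from upstream to the constant gene, with Wilson 95% intervals. No 3' member (grey region) is above 1.20%, and in the spleen the middle genes from TRAJ24 to TRAJ31 are at most 1.08%. The upstream J genes reach 22.6% in the thymus and 40.0% in the spleen.

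At the other end of the V array stand TRAV1 and TRAV2, the TRAV genes farthest from J. They were found in 17 of the 3' clonotypes of the thymus (0.776%, 0.485% to 1.24%) and 16 of the spleen (0.463%, 0.286% to 0.752%). TRAV1 had 10 in each library, and TRAV2 had 7 in the thymus and 6 in the spleen. Middle joins had 11 in each library (0.379% and 0.246%). Upstream joins had none, which allows a share of up to 0.337% in the thymus and 0.210% in the spleen. These counts are small and were not tested.

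The 128 annotated V genes were also split by position into 3 equal groups. Shares were taken over clonotypes with a positioned TRAV gene, which left out 3 of the 3' joins in the thymus and 8 in the spleen, and 50 and 98 of the upstream joins. Of these, the group nearest J supplied 18.7% of the 3' joins in the thymus and 20.6% in the spleen, against 66.7% and 57.0% of the upstream joins. The group farthest from J supplied 42.2% and 42.6% of the 3' joins, against 12.1% and 18.4% of the upstream joins. The middle joins lay between on both measures in both libraries. V genes of this locus exist in near-identical copies, so the position of these copies is uncertain. The first-listed V gene was tied in score with another in 31.9% of the 3' clonotypes of the thymus and 32.0% of the spleen. Ties may understate this uncertainty, since only 105 of the 277 CDR3 sequences found in both libraries had the same first-listed V gene. TRAV1, TRAV2, TRAV17, TRAV19 and TRAV21/DV12 had no ties among the 3' joins.

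**Figure D3:**
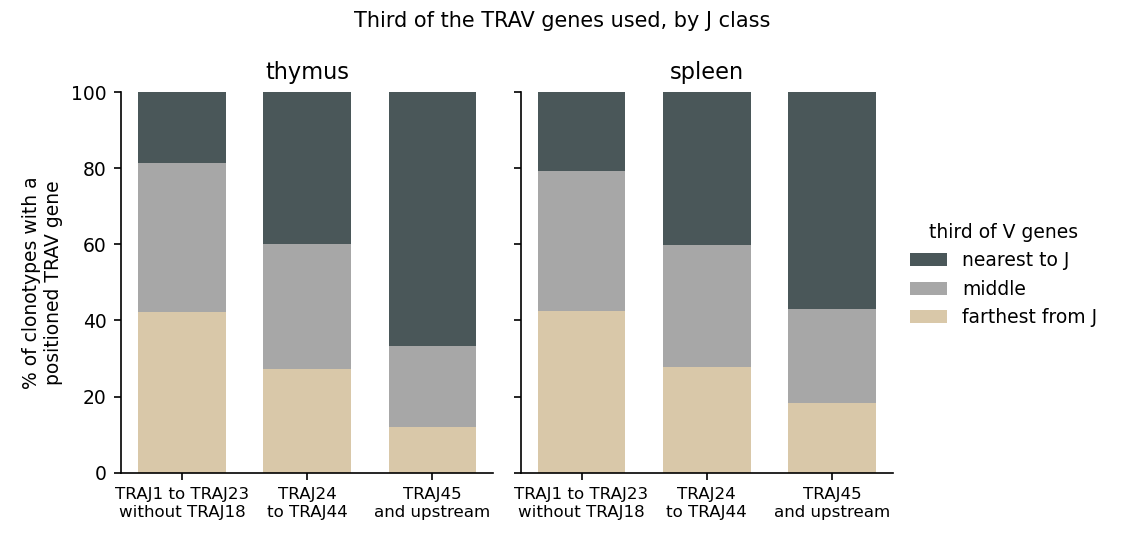
Percent of clonotypes by the position of their TRAV gene (annotated genes split into 3 equal groups by distance from J) for 3', middle and upstream J genes in each library, over clonotypes with a positioned TRAV gene. The group nearest J supplies 18.7% and 20.6% of the 3' joins in thymus and spleen and 66.7% and 57.0% of the upstream joins.

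Within these limits the 3' joins drew on many V genes, 109 in the thymus and 111 in the spleen, in 870 and 1044 different V-J pairs. The leading V genes of the thymus were TRAV16D-DV11 with 79 clonotypes, TRAV3D-3 with 77, TRAV6D-7 with 74, TRAV14D-3-DV8 with 70 and TRAV12D-3 with 64. In the spleen they were TRAV3D-3 with 166, TRAV16D-DV11 with 160, TRAV12D-2 with 133, TRAV6-6 with 121 and TRAV6D-7 with 98. Many of these counts rest on tied calls and may pool near-identical copies under 1 name. In the thymus all clonotypes of TRAV3D-3 and TRAV6D-7 and 61 of TRAV12D-3 were tied, but 0 of TRAV16D-DV11 and TRAV14D-3-DV8. In the spleen all of TRAV3D-3, TRAV6-6 and TRAV6D-7, 128 of TRAV12D-2 and 1 of TRAV16D-DV11 were tied. No first-listed V gene was above 4.81% of the 3' clonotypes in either library. The most frequent pair was TRAV6D-7 with TRAJ23 in the thymus (18 clonotypes, all with a tied V) and TRAV16D-DV11 with TRAJ23 in the spleen (27 clonotypes, none tied).

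By family, TRAV7 and TRAV6 were the largest partners. TRAV7 made up 17.8% of the 3' joins in the thymus and 15.5% in the spleen, 14.8% and 11.8% of the middle joins, and 5.28% and 5.26% of the upstream joins. TRAV6 made up 15.97% and 18.3% of the 3' joins, 17.9% and 15.6% of the middle joins, and 14.0% and 11.3% of the upstream joins. V genes of the δ locus (TRDV) were rare in 3' joins, with 3 clonotypes in the thymus (0.137%) and 8 in the spleen (0.232%), against 5.62% and 6.87% of the upstream joins. These family shares are given as descriptions.

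A clonotype was called productive when its CDR3 was in frame and had no stop codon. This held for 78.7% of 3' joins in the thymus (1724 of 2191, 76.9% to 80.3%) and 68.8% in the spleen (2374 of 3452, 67.2% to 70.3%). The difference of 9.91 percentage points (7.58 to 12.2) passed Fisher's exact test, two-sided (adjusted p = 4.96e-16 over 2 tests). Out-of-frame joins made up nearly all of the rest, 21.1% of clonotypes in the thymus and 30.9% in the spleen, with an in-frame stop codon in 5 and 11 clonotypes. Weighted by reads the productive shares were 88.2% (thymus) and 86.7% (spleen), a difference of 1.501 points. A productive 3' clonotype had a median of 99.5 (thymus) and 136 (spleen) reads, and an unproductive one 62 and 67.

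In the thymus the 3' joins were more often productive than the middle joins, at 71.4%, by 7.30 points (4.90 to 9.66, adjusted p = 1.29e-08, Fisher's exact test with adjustment over 4 tests). Their difference from the upstream joins, at 75.6%, was 3.07 points (-0.164 to 6.43) and did not pass the exact test (adjusted p = 0.138). In the spleen neither difference passed the same exact test. By that exact test the 3' share there was -0.356 points from the middle joins (-2.42 to 1.69, adjusted p = 0.750) and -2.29 points from the upstream joins (-5.06 to 0.563, adjusted p = 0.155). Both turned direction when weighted by reads, to 2.29 and 0.927 points, and the first also with a minimum of 10 reads, to 0.172 points.

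Gene by gene the direction between libraries was uniform. Among the 14 members with at least 50 clonotypes in both libraries, 14 had a higher productive share in the thymus, as did 76.3% of all TRAJ genes of that size. The widest gap was at TRAJ7, with 82.0% in the thymus and 66.7% in the spleen, and the narrowest at TRAJ11, with 76.4% and 76.0%. TRAJ13 had the highest share in the thymus, 85.2%, and TRAJ12 the lowest, 72.3%. In the spleen the highest was TRAJ11 and the lowest TRAJ17, at 62.2%. With 40 to 279 productive clonotypes a gene in the thymus, intervals of single genes were wide, and no test was made per gene.

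**Figure D4:**
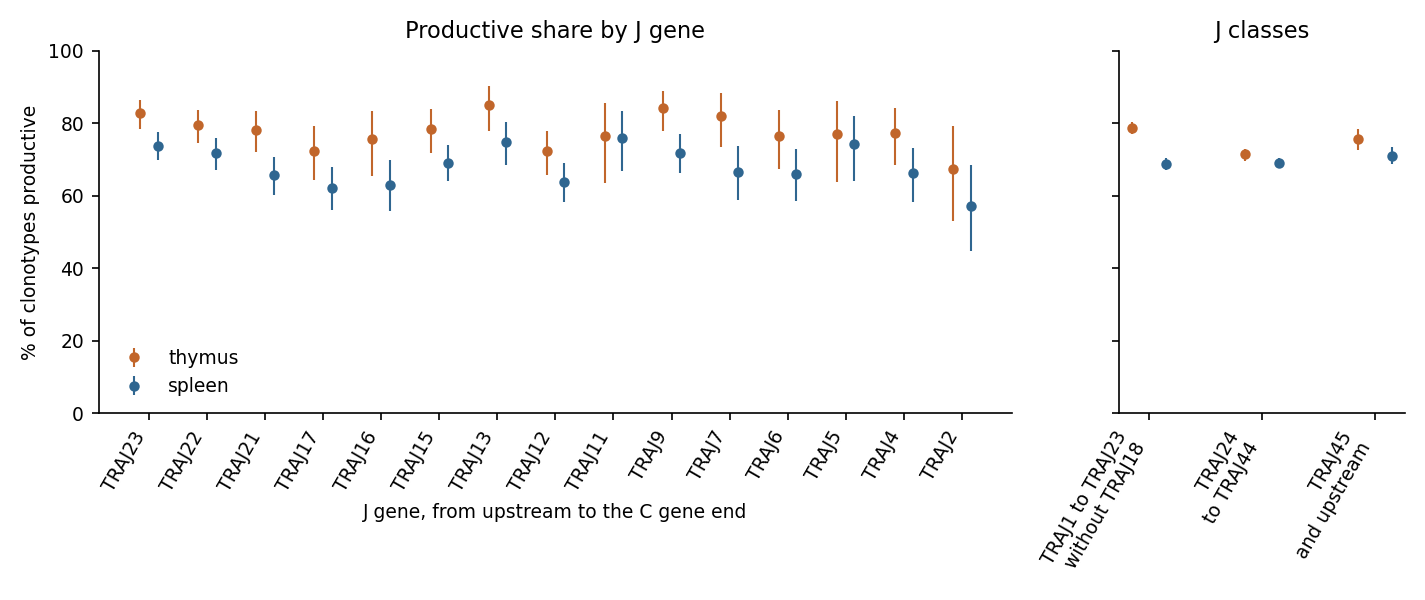
Productive share of clonotypes in percent for each used 3' J gene (left) and for the 3 classes of J genes (right) in the thymus and spleen library, with Wilson 95% intervals. The thymus lies above the spleen at all 15 genes shown, and the gap between libraries at the 3' class, 78.7% against 68.8%, is the widest of the 3 classes.

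Inserted nucleotides are bases added between V and J by terminal transferase, counted here as the gap between the aligned ends. Among productive 3' joins 33.1% had no inserted base in the thymus (571 of 1724, 30.9% to 35.4%) and 43.1% in the spleen (1024 of 2374, 41.2% to 45.1%). The spleen was higher by 10.01 points (7.01 to 13.0, Fisher's exact test, two-sided, adjusted p = 8.24e-11 over 2 tests). Weighted by reads the shares were 37.4% and 59.3%, and thymus minus spleen was -21.9 points. The median insertion was 2 bases in the thymus and 1 in the spleen. Lengths of 1 base were found in 16.1% and 13.6%, of 2 in 18.1% and 15.5%, of 3 in 14.5% and 11.3%, and of 6 or more in 5.63% and 4.97%.

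The gap depends on how the aligner placed the ends. In 21.8% of the productive 3' clonotypes of the thymus and 29.1% of the spleen the V and J alignments overlapped, so the same bases fit both germline genes. When clonotypes with a mismatch or gap in the V or J alignment were left out, the shares without insertion were 19.5% (thymus) and 32.2% (spleen). When palindromic bases were counted as inserted it was 13.1% and 17.6%. The level of the share therefore rests on the rule, and the spleen stayed above the thymus under each, by 12.7 points (adjusted p = 2.26e-15, Fisher's exact test) and by 4.46 points (adjusted p = 0.000106). Unproductive 3' joins had no inserted base in 34.7% of cases in the thymus and 56.2% in the spleen.

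Against other J genes the differences were small. In the spleen productive 3' joins lacked insertions more often than middle joins, at 38.6%, by 4.56 points (1.93 to 7.18, Fisher's exact test, adjusted p = 0.00279 over 4 tests). That call was lost with palindromic bases counted as inserted, when the difference was 0.737 points (adjusted p = 0.591, exact test). In the thymus the difference from the middle joins, at 30.0%, was 3.14 points (0.169 to 6.11) and did not pass the exact test (adjusted p = 0.0833). Neither difference from the upstream joins passed the exact test, with -0.312 points in the thymus (-4.56 to 3.82, adjusted p = 0.885) and 1.32 points in the spleen (-2.33 to 4.93, adjusted p = 0.660).

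The members varied among themselves. TRAJ21 had the lowest share without insertion in both libraries, 25.3% in the thymus and 35.0% in the spleen. The highest was TRAJ11 in the thymus, 47.6%, and TRAJ5 in the spleen, 57.6%. The spleen was higher at 13 of the 14 members with at least 50 clonotypes, where 94.7% of all TRAJ genes of that size were. The exception was TRAJ12, with 43.0% in the thymus and 42.1% in the spleen. At TRAJ23 the libraries were at 34.8% and 35.1%, and the widest gap was at TRAJ7, with 30.5% and 56.9%.

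**Figure D5:**
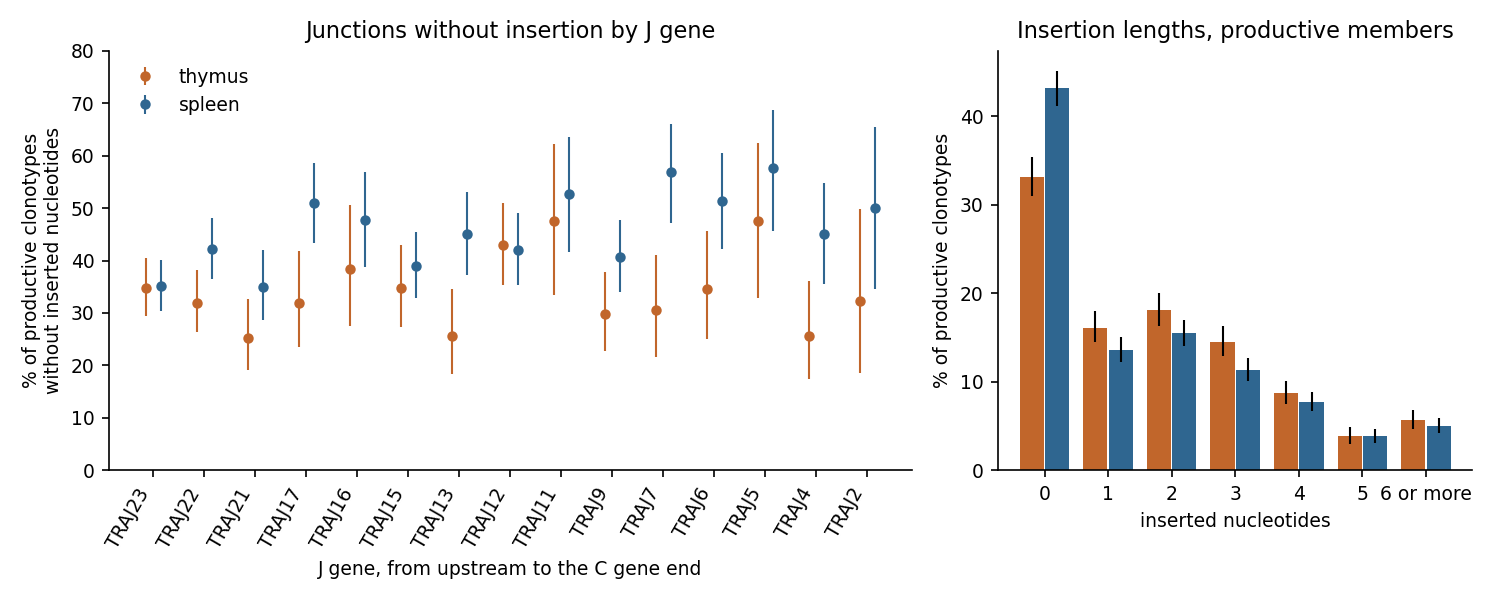
Percent of productive 3' clonotypes without inserted nucleotides for each used J gene (left) and percent by number of inserted nucleotides over all productive 3' clonotypes (right), in the thymus and spleen library, with Wilson 95% intervals. The spleen is above the thymus at every gene shown but TRAJ12, and junctions without insertion are the largest class in both libraries, at 33.1% and 43.1%.

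CDR3 length and J trimming differed little between the libraries. Productive 3' CDR3s had a mean length of 40.3 nucleotides in the thymus (SD 4.82, n = 1724 clonotypes) and 40.4 in the spleen (SD 5.36, n = 2374). By J gene the mean ran from 37.7 at TRAJ21 to 46.9 at TRAJ2 in the thymus and from 37.9 at TRAJ13 to 45.8 at TRAJ2 in the spleen. TRAJ2 thus had the longest CDR3s in both libraries, and its germline exon holds 35 bases up to the end of the conserved codon, the longest such stretch of those shown above. The median number of J bases trimmed was 1 in both libraries for 3' joins, 2 and 2 for middle joins, and 3 and 2 for upstream joins.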

How the data were processed

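TCR transcripts of 15000 sorted cells per library were amplified with a commercial mouse TCR kit and read on a MiSeq. The authors assembled clonotypes with MiXCR. They deposited an unnormalized read count per clonotype and the fraction it makes of a library's reads of both chains. Shares were recomputed here over TCRα reads. Filters, the build of MiXCR's gene library and molecular identifiers were not given in the sources used here.

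The first-listed J and V genes were used. A clonotype was productive when its CDR3 had no frameshift or stop codon. Insertion was the distance between the aligned V and J ends, with overlaps counted as 0. All TRAJ genes with at least 10 clonotypes over both libraries entered the per-gene tests, and shares of single genes were compared from 50 clonotypes in each. Intervals are Wilson 95% for shares and Newcombe 95% for differences. Tests were Fisher's exact, two-sided, with Benjamini-Hochberg adjustment and a threshold of 0.05. The per-gene test was checked on simulated data, with shares of well-used J genes changed by more than any 3' clonotype share differed here. That check does not show its power for differences as small as those seen. Named genes were the leading, highest, lowest and unused J genes, the 5 leading V genes and those at both ends of the V array, and the 3 largest and 3 largest shared clonotypes. The range of J genes, these lists and the tests were chosen with earlier results of these data known. Sequences and positions came from GENCODE (GRCm38). Python 3.11.15, pandas 2.3.3, scipy 1.17.1 and statsmodels 0.14.6 were used.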

Additional observations from a re-analysis of the deposited data

Results flagged for a closer look

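The contrast of productive shares between J classes differed between the libraries. In a logistic model of clonotypes, chosen after seeing the data, the odds ratio of being productive for 3' against middle joins was 1.48 in the thymus. In the spleen it was 0.984, a ratio of odds ratios of 1.504 (95% interval 1.28 to 1.77). For 3' against upstream joins the odds ratios were 1.19 and 0.897, and their ratio was 1.33 (1.06 to 1.67). Both passed Benjamini-Hochberg adjustment over 6 interaction tests. The second did not with a minimum of 10 reads (ratio 1.22), with errors merged (1.32) or with TRAJ18 included (1.28). The model treats clonotypes as independent and has no replicate of either library. The tests of the same kind for insertions and for TRAV17 to TRAV21 did not pass, except the latter against upstream joins with a minimum of 2 reads (ratio 2.99) or 10 reads (3.44).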

How the results depend on the processing

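No paired analysis was possible because each tissue had 1 library, without replicates, and no library could be left out. Of 142 recomputed main values, 122 kept their direction and side of the threshold or stayed within their interval. With TRAJ18 included the 3' joins were 37.7% (thymus) and 38.5% (spleen) of clonotypes and 34.6% and 41.3% of reads. Over productive clonotypes they were 37.9% of clonotypes in the thymus (1724 of 4545) and 2374 of 6651 clonotypes in the spleen. By reads of productive clonotypes they were 34.4% and 38.9% in thymus and spleen, and over all clonotypes weighted by reads 33.1% and 38.4%. The small difference of productive shares in the spleen turned sign with a minimum of 10 reads (0.172 points against middle joins) and weighted by reads (2.29 points against middle and 0.927 against upstream joins). Weighted by reads it was 4.52 and 8.08 points in the thymus. The differences without insertion were 12.9 points against middle joins in the thymus when weighted by reads, 0.122 against upstream joins there with a minimum of 10 reads, and -2.16 against upstream joins in the spleen with palindromic bases counted as inserted, where the call against middle joins was lost (0.737 points). Between libraries (thymus minus spleen), weighting by reads gave 1.501 points for the productive share and -21.9 for no insertion. The 0 calls per J gene and the 4 calls for TRAV17 to TRAV21 held under each alternative run, including the nearest of the 3 groups of V genes. The alternatives on alignments, palindromic bases and equal reads were chosen after seeing the data. With the spleen reads thinned to the thymus number the productive difference was 9.54 points. Of 390 values of single J genes and odds ratios, 385 stayed within their interval or on their side of the threshold, and 5 odds ratios crossed it.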

Other observations

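Among the 3' clonotypes, 83 in the thymus and 108 in the spleen had a single read, and 195 and 231 had fewer than 10 reads. The gap between the aligned V and J ends was 20 bases or more in 12 of the 3' clonotypes of the thymus and 30 of the spleen, productive or not. The J bases of productive 3' CDR3s matched the germline of their J gene in 90.8% of clonotypes in the thymus and 91.3% in the spleen. Whether the rest held mismatches or only palindromic bases before the germline start was not tested. J was untrimmed in 34.0% and 34.5% of the 3' clonotypes, against 27.3% and 29.6% of the middle joins.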
